A study of Aethionema arabicum with 12 samples.

Results

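The nuclear genes for ribosomal proteins were described in light-exposed, imbibed seeds of the Brassicaceae species Aethionema arabicum. The members were the gene models of the deposited table whose description holds the words ribosomal protein, without organelle-encoded genes (4 models left out) and without kinases or methyltransferases (1 model left out). This gave 310 of 24932 gene models, paired with 210 codes of the Arabidopsis annotation. All seeds were of the Cyprus accession, were kept on wet filter paper at 14 °C and had not germinated when they were collected, and no transgene or mutant was used. The light was white, at 100 µmol m-2 s-1, and lasted 23 h (called 1 d here), 7 d or 14 d, while the remaining group had 7 d of it and then 7 d in the dark. Each condition had 3 libraries, 12 in all, of poly(A)-selected RNA. The libraries are of whole seeds, so fewer cells of a type and less RNA per cell cannot be told apart.

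Cytosolic ribosomes are built from a small 40S subunit and a large 60S subunit, each an RNA core bound by many small proteins, and plants encode most of these proteins by several gene copies. An acidic stalk of P proteins on the large subunit recruits translation factors. Chloroplasts and mitochondria have their own ribosomes of bacterial type, and most of their proteins are encoded in the nucleus. In seeds, stored ribosomes and stored mRNAs allow protein synthesis early in imbibition, and new ribosomes are made as germination goes on.

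By their descriptions and Arabidopsis codes, the 310 models comprised 99 of the cytosolic 60S subunit, 76 of the cytosolic 40S subunit, 11 of the acidic P stalk, 41 of plastid ribosomes and 17 of mitochondrial ribosomes. A further 31 were of bacterial type with no organelle stated. The remaining 35 carry a ribosomal protein domain or name but are not structural proteins or are unclear. Of all 310, 10 had no count in any library, 15 more had too few counts to be tested (at most 33 over the 12 libraries), and 285 were tested. Copies were common: 139 codes were paired with 1 model, 46 with 2, 21 with 3 and 4 with 4.

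The 1 d libraries were the deepest, with 3387609 to 3996148 counts each. Those of 7 d held 1596668 to 2689668 counts, those of 14 d 916523 to 2448092, and those of the dark week 1299536 to 1900418. The 8 models paired with embryo storage protein codes were all detected and summed to 1083 to 1276 CPM (counts scaled to a common library total) at 1 d and to 2073 to 5600 CPM in the other conditions. Of the 5 models paired with endosperm markers, 4 had no count and the summed level was at most 0.676 CPM. The 4 seed coat markers were all detected, with summed levels of 200 to 214 CPM at 1 d, 158 to 174 CPM at 7 d, 177 to 214 CPM at 14 d and 75.5 to 92.9 CPM after the dark week. Of 7 models paired with root markers 4 had no count, and the sum was 3.77 to 7.09 CPM at 1 d and at most 0.636 CPM in the 9 other libraries. The part of these cell type markers in the results below was not tested.

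The 310 models together took 2.62% to 4.15% of all counts of a library. The share was 3.02%, 3.21% and 2.88% in the 3 libraries of 1 d, 2.67%, 2.77% and 3.67% after 7 d, 4.15%, 2.62% and 3.70% after 14 d, and 3.06%, 3.48% and 2.77% after the dark week. The conditions overlapped, and within each condition the library with the lowest total had the highest share. After 14 d, for instance, the libraries with shares of 4.15%, 2.62% and 3.70% held 916523, 2448092 and 1364240 counts.

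**Figure D1:**
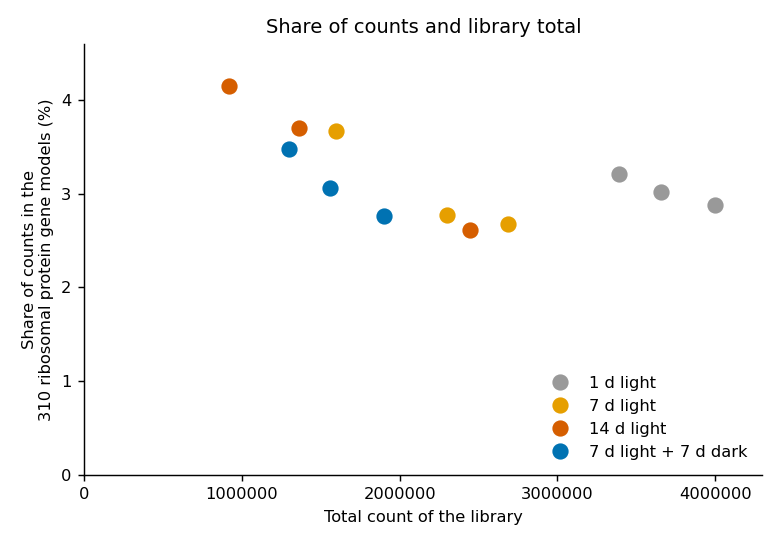
Share of counts in the 310 ribosomal protein gene models (vertical axis, percent) against the total count of each library (horizontal axis, counts); each point is 1 of the 12 libraries, coloured by condition. Within each condition the library with the lowest total has the highest share, from 2.62% to 4.15% over all libraries.

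Ribosomal protein genes lay among the densely read genes of the table. Per base of the deposited gene length, the median member held 0.215 to 0.232 reads in the 1 d libraries, where the median of all models with a count was 0.0453 to 0.0551. Among models of 300 bp or longer no member exceeded 0.938 reads per base and no model of the table exceeded 0.996. The counts of a densely read member hardly followed the library total: Aa31LG7G7320, an L18e/L15 superfamily model of 438 bp, had 388, 388 and 393 counts at 1 d, 382, 346 and 353 at 7 d, 292, 341 and 326 at 14 d, and 345, 353 and 367 after the dark week. In CPM, the same counts were 97.6, 106 and 89.9 CPM at 1 d but 346, 140 and 244 CPM at 14 d, where the library of 2448092 counts gave the low value.

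Over the 285 tested members, the slope of log2 count on log2 library total within conditions had a median of 0.50, against 1.09 over all 15301 tested models. A slope of 1 means that counts grew in proportion to the library. Among all models the median slope fell from 1.20 in models of up to 0.1 reads per base to 0.63 above 0.3. For members it was 0.64 (42 models) and 0.46 (108 models) in the same classes. Members therefore lay below all models in each of the 4 density classes, also where few reads per base were counted. These slopes are a description added after the data were seen. Because the 1 d libraries were the deepest, depth moved with the comparison of 7 d with 1 d, and depth and condition cannot be told apart there. The dark and 14 d libraries overlapped in their totals.

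**Figure D2:**
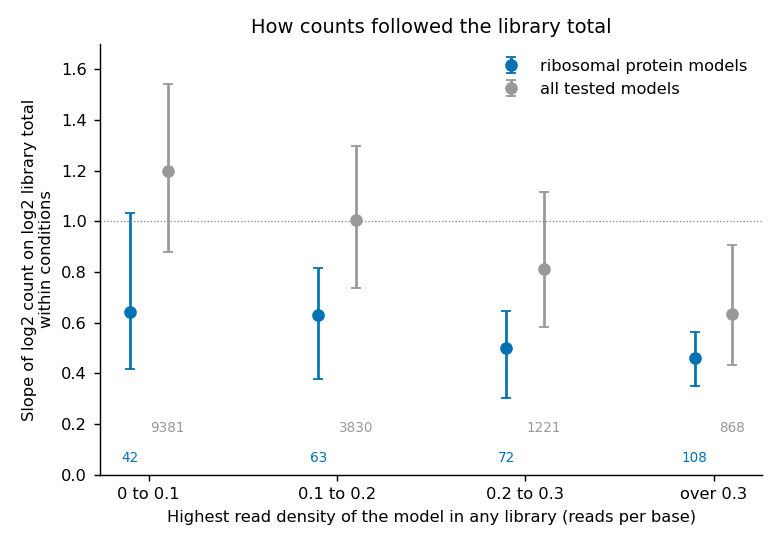
Median slope of log2 count on log2 library total within conditions (vertical axis) by the highest read density of a gene model in any library (horizontal axis, reads per base), for ribosomal protein models (blue) and all tested models (grey). Bars span the quartiles, the small numbers give the gene models in each class, and the dotted line at 1 marks counts proportional to the library. The member medians, 0.64 to 0.46 from the lowest to the highest class, lie below those of all models, 1.20 to 0.63.

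In level per length (reads per kilobase of model length, scaled to the library total, RPKM, over the 12 libraries), the median member stood at 60.4 RPKM, and the median of all 24932 models was 5.47. Medians were 81.1 RPKM for the P stalk, 79.2 for the 40S subunit, 66.2 for the 60S subunit, 65.4 for plastid ribosomes and 46.9 for the bacterial type without a stated organelle. They were 30.9 RPKM for mitochondrial ribosomes and 28.6 RPKM for the models that are not structural or are unclear.

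The 6 members with the highest mean RPKM belonged to the cytosolic ribosome. The L18e/L15 model Aa31LG7G7320 led them with 243 ± 18.5 RPKM at 1 d, 391 ± 99.0 at 7 d, 530 ± 205 at 14 d and 522 ± 90.8 after the dark week (mean ± SD, n = 3 each). The S28 model Aa31LG1G21420 followed with 271 ± 22.6, 325 ± 63.1, 297 ± 45.5 and 301 ± 31.7 RPKM in the same order. Next were an L11 family model (Aa31LG10G8620, mean 266 RPKM), 2 models of the S5 domain 2-like superfamily (Aa31LG11G11270 at 266 and Aa31LG5G14710 at 244 RPKM) and a further L18e/L15 model (Aa31LG4G10350, 240 RPKM). From the second place down, these neighbours differed by less than their spread between libraries. Of the 6, Aa31LG7G7320 alone was called between 7 d and 1 d of light (log2 fold change 0.81 ± 0.27 SE, adjusted p = 0.0181, edgeR's quasi-likelihood test), a call that held in 9 of the 12 fits that each leave out 1 library, and its fold change was 0.05 with the length and density trends described below removed. None of the 6 was called in the other comparisons.

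The first week of light was compared by 7 d against 1 d. Of the 285 tested members, 57 were higher and 65 lower at 7 d (edgeR's quasi-likelihood test, Benjamini-Hochberg adjusted p under 0.05 over all tested models). Of all 15301 tested models 30.7% were higher and 29.7% lower, 60.4% in all, so the members' called share of 42.8% lay below that of the whole table. The median log2 fold change was 0.15 over the members and 0.02 over all tested models. The split of the calls depended on the scaling: 35 were higher and 82 lower when libraries were scaled by their total counts, which moved the median of all models from 0.02 to -0.11 and their called shares to 24.8% higher and 34.9% lower. With each library's trends on gene length and read density removed, 27 were higher and 143 lower and the members' median was -0.26. The same removal gave 29% higher and 32.5% lower among all tested models, with a median of -0.03, and these shares are the background of the first-week class and list counts with the trends removed. Without the third 7 d library, the shallowest of its group, 18 were higher and 79 lower, and without 1 d library 1, 2 or 3 the number higher was 23, 37 or 21. The shares of all tested models in these fits are not given here. Of the 122 calls, 67 held whichever of the 12 libraries was left out.

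Among the cytosolic classes, 10 of 71 tested 40S models were higher and 12 lower, and 11 of 91 tested 60S models were higher and 21 lower. With the length and density trends removed these became 1 and 44, and 5 and 48. The 40S model that fell furthest was Aa31LG4G10360, of the S5 domain 2-like superfamily. It had 21.9, 25.7 and 24.9 CPM at 1 d, 3.32, 3.53 and 4.45 CPM at 7 d, 4.74, 7.38 and 4.5 CPM at 14 d, and 5.41, 7.33 and 2.22 CPM after the dark week. The 1 d libraries lay above all others without overlap, and the log2 fold change from 1 d to 7 d was -2.70 ± 0.25 (SE, adjusted p = 1.87e-06, edgeR).

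Aa31LG5G21910 belongs to the S8 family, which in bacteria binds the small subunit RNA early in assembly. It had 85.5, 90.7 and 83.3 CPM at 1 d and 21.4, 19.0 and 27.4 CPM at 7 d, followed by 23.7, 24.2 and 30.7 CPM at 14 d and 13.5, 12.2 and 15.5 CPM after the dark week. It fell by 1.96 ± 0.14 on the log2 scale in the first week (adjusted p = 2.22e-07, edgeR). The raw counts were 340, 332 and 364 at 1 d and 58, 43 and 43 at 7 d. The part of library depth in this fall was not tested.

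Among 60S models, Aa31sc350G40, of the L4/L1 family, whose protein reaches into the peptide exit tunnel, had 147, 107 and 172 counts at 1 d, 1, 0 and 0 at 7 d, and none in the 6 libraries of the other conditions. Summed over libraries the 426 counts against 1 give a ratio of CPM of 232 (95% exact interval of the counts 41.5 to 9201, counting error only). Aa31LG9G4730, of the L13 family, had 30.7, 30 and 33.2 CPM at 1 d and 4.79, 3.53 and 5.09 CPM at 7 d. Its 14 d values of 14.2, 4.10 and 6 CPM and dark values of 5.41, 6.52 and 3.88 CPM also lay below every 1 d library. Its log2 fold change in the first week was -2.81 ± 0.26 (SE, adjusted p = 1.87e-06, edgeR).

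The P stalk had 9 tested models, of which 3 were lower and 1 higher at 7 d, and 7 lower and 0 higher with the trends removed. Aa31LG5G19590, of the L10 family whose Arabidopsis partner forms the base of the stalk, had 196, 212 and 191 CPM at 1 d and 70.8, 80.3 and 83.3 CPM at 7 d. It fell by 1.36 ± 0.11 on the log2 scale (adjusted p = 5.07e-07, edgeR), with no overlap between the groups. The acidic protein model Aa31LG9G1590 went from 18.4, 18.3 and 14.9 CPM to 2.58, 0.882 and 4.45 CPM (log2 fold change -2.78 ± 0.40 SE, adjusted p = 6.0e-05, edgeR). The one stalk model that was higher, Aa31LG5G8270, had 0.61 ± 0.24 (adjusted p = 0.041, edgeR) and 0.05 with the trends removed.

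Of 37 tested plastid models, 16 were higher and 6 lower after 7 d, with a median log2 fold change of 0.31. By total counts these were 9 and 6, and with length and density trends removed 6 and 11 with a median of -0.05, so the direction of the class flipped when the trends were removed. The S9 model Aa31LG4G5200 was higher under every scaling tried. It had 199, 204 and 205 CPM at 1 d and 384, 419 and 438 CPM at 7 d. The log2 fold change was 1.03 ± 0.11 (adjusted p = 4.69e-06, edgeR), and 0.45 with the trends removed. Its deposited length is 7914 bp, and its raw counts were 792, 746 and 895 at 1 d and 1040, 950 and 689 in the smaller 7 d libraries. The model of plastid-specific 50S ribosomal protein 5, Aa31LG10G11770, rose from 1.51, 1.09 and 1.14 CPM to 5.16, 4.41 and 8.27 CPM, on 4 to 14 counts a library (log2 fold change 2.14 ± 0.34, adjusted p = 0.00013, edgeR). Plastid L4, L3 and L6 family models fell, led by L4 (Aa31LG1G6580) with -0.82 ± 0.11 (adjusted p = 5.1e-05, edgeR) and -1.13 with the trends removed.

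Of 16 tested mitochondrial models 2 were higher and 7 lower, with a median log2 fold change of -0.26, and 3 were higher and 11 lower with the trends removed. The L11 model Aa31LG6G12500, whose family sits at the factor-binding site of the large subunit, had 23.9, 26.5 and 24.7 CPM at 1 d and 10.3, 9.70 and 12.1 CPM at 7 d (log2 fold change -1.24 ± 0.17, adjusted p = 4.2e-05, edgeR). The other tested model of the same code, Aa31LG3G10000, went the opposite way on few reads, with 0, 4 and 1 counts at 1 d and 5, 5 and 6 at 7 d (log2 fold change 2.41 ± 0.67, adjusted p = 0.00703, edgeR). Aa31LG6G12500 held 96.1% of the summed RPKM of this code at 1 d and 80.2% at 7 d. The model related to mitochondrial 28S ribosomal protein S29, Aa31LG7G1300, had 105, 99.1 and 104 CPM at 1 d and 49.8, 37.9 and 47.1 CPM at 7 d. It fell by 1.19 ± 0.13 on the log2 scale (adjusted p = 5.4e-06, edgeR), and in this model and in Aa31LG6G12500 every 1 d library lay above every 7 d library.

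Of 30 tested models of bacterial type with no organelle stated, 8 were higher and 10 lower, and 5 and 14 with the trends removed. Among the 31 tested models that are not structural or are unclear, 9 were higher and 6 lower, and 7 and 8 with the trends removed. Of the 6 members with the highest called log2 fold change at a mean of at least 8 CPM, 5 were in this class. Aa31LG8G1810, of the L18ae family, had 12.3, 12.6 and 12.1 CPM at 1 d, 34.7, 35.7 and 43.9 CPM at 7 d, 29.6, 35.2 and 42.0 CPM at 14 d, and 60.9, 68.4 and 63.3 CPM after the dark week. The 1 d libraries were lowest and the dark libraries highest, without overlap, and the first-week log2 fold change was 1.61 ± 0.14 (adjusted p = 1.35e-06, edgeR). The others were Aa31LG11G13410 (50S ribosomal protein-related, 1.45 ± 0.23), Aa31LG11G14280 (L34e superfamily, 1.14 ± 0.35), Aa31LG10G820 (L18ae family, 1.08 ± 0.27) and Aa31LG3G420 (L18ae family, 0.94 ± 0.19), all log2 fold changes ± SE. The call of Aa31LG11G14280, which had 15 to 45 counts a library, was lost without 1 d library 1 (adjusted p = 0.0535, edgeR) or 7 d library 3 (adjusted p = 0.0726, edgeR).

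In the same class 2 models were among the furthest down. Aa31LG10G13240, of the L1p/L10e family, went from 124, 137 and 124 CPM to 35.8, 37.0 and 29.3 CPM (log2 fold change -1.90 ± 0.12, adjusted p = 1.66e-07, edgeR). Aa31LG11G13830, of the S4 family with an RNA-binding motif, went from 39.5, 38.5 and 39.1 CPM to 6.27, 5.73 and 12.7 CPM (-2.33 ± 0.28, adjusted p = 1.51e-05, edgeR). In both, the 1 d libraries lay above all 9 others.

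**Figure D3:**
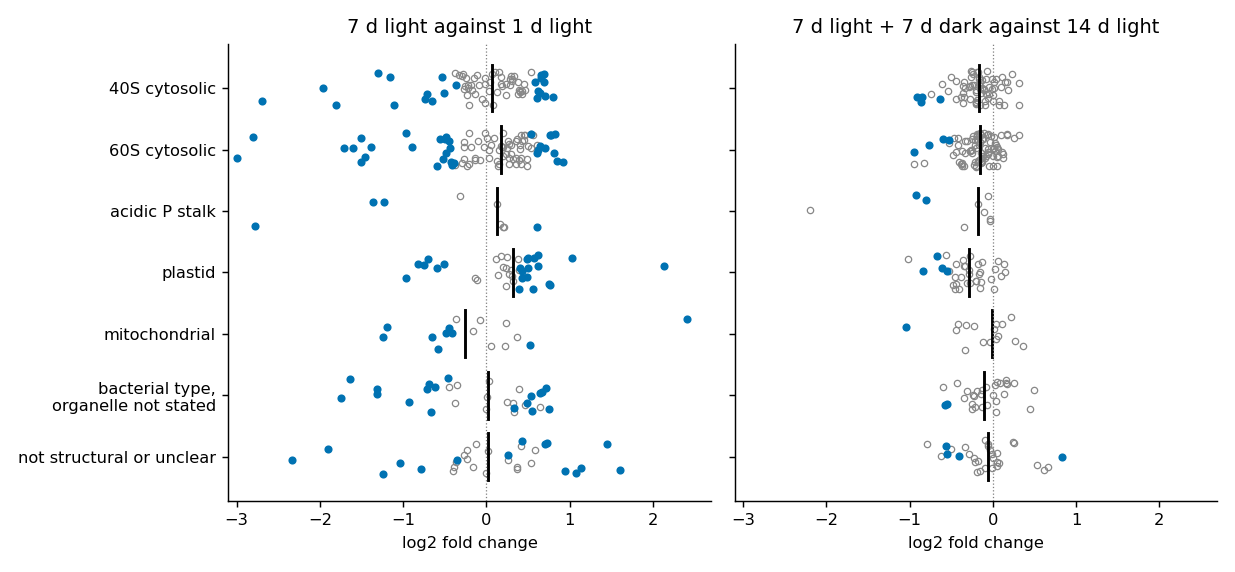
log2 fold change of each tested ribosomal protein model (horizontal axis) by class (vertical axis), for 7 d against 1 d of light (left) and for 7 d of light and 7 d of dark against 14 d of light (right). Filled points passed the adjusted p threshold of 0.05 in edgeR's quasi-likelihood test, open points did not, and black bars are class medians, from -0.26 (mitochondrial) to 0.31 (plastid) on the left. The point drawn at the left edge is Aa31sc350G40, at a fitted value of -7.42.

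The second week of light, 14 d against 7 d, gave no called member in either direction by edgeR's quasi-likelihood test and none by DESeq2, where 0.307% of all tested models were called by edgeR. At an unadjusted p under 0.05 the members numbered 17 of 285 by edgeR, where all tested models numbered 1814 of 15301. By DESeq2 the members numbered 22, and the number over all tested models by DESeq2 is not given here. The median log2 fold change of the members was 0.21, and that of all tested models -0.01. The result rested on 1 library: without the second 14 d library, the deepest of its group, 60 members were higher and 3 lower, while 10.8% of all tested models were called. Without the third 7 d library 1 member was called.

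The dark week was compared at equal age by 7 d of light and 7 d of dark against 14 d of light. Of 285 members 1 was higher and 20 were lower, against 6.05% higher and 7.02% lower among all tested models, so the called share of the members (7.37%) lay below that of the table (13.1%). The median log2 fold change was -0.16 over the members and -0.03 over all tested models. Plastid models had the lowest class median, -0.29, with 4 of 37 lower and 0 higher, and 12 lower with the length and density trends removed, where 8.17% of all tested models were lower and 9.07% higher. The 40S and 60S classes had 4 lower each, the P stalk 2, the bacterial type 2, the mitochondrial class 1 and the models that are not structural or are unclear 3.

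The count of lower members was 10, 51 or 7 without 14 d library 1, 2 or 3, 7, 12 or 5 without dark library 1, 2 or 3, and 13 without either 1 d library 1 or 1 d library 3. It was 39 with both trends removed, read against the same shares, 13 with the length trend alone removed (6.33% of all tested models), and 6 in a fit of the 2 conditions only (3.71%). For the fits that leave out a library, the share of all tested models is not given here. Their counts are therefore not set against the table. Of the 21 calls, 5 held whichever library was left out: Aa31LG5G19590, Aa31LG5G21910, Aa31LG1G14260, Aa31LG1G22050 and Aa31LG8G1810.

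Among the 40S models, the S8e family model Aa31LG1G14260 had 48.6, 53.3 and 56.2 CPM at 14 d and 29.8, 26.9 and 31.1 CPM after the dark week. It had started from 132, 141 and 127 CPM at 1 d and 63.4, 63.5 and 58.5 CPM at 7 d. The dark libraries lay below all 9 others, with a log2 fold change against 14 d of -0.85 ± 0.12 (adjusted p = 0.000594, edgeR) and against 7 d of -1.07 ± 0.11 (adjusted p = 6.52e-05, edgeR). The S7e family model Aa31LG10G4810 had 28.4, 25.8 and 36.7 CPM at 14 d and 15.6, 19.6 and 15.0 CPM in the dark (log2 fold change -0.86 ± 0.18, adjusted p = 0.00873, edgeR). The S8 family model Aa31LG5G21910, whose values stand above, had -0.91 ± 0.19 (adjusted p = 0.0079, edgeR).

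Among the large subunit models, the stalk base model Aa31LG5G19590 had 91.2, 75 and 81 CPM at 14 d and 46.7, 40.7 and 41.6 CPM after the dark week. The groups did not overlap, and the log2 fold change was -0.92 ± 0.12 (adjusted p = 0.000425, edgeR). The L18e/L15 model Aa31LG5G4200 had 26.1, 26.2 and 27.7 CPM at 14 d and 12.2, 18.7 and 11.7 CPM in the dark, -0.94 ± 0.20 on the log2 scale (adjusted p = 0.00804, edgeR). The L4/L1 model Aa31LG1G22050 had 124, 121 and 119 CPM at 14 d and 73.0, 85.5 and 82.1 CPM in the dark (-0.60 ± 0.10, adjusted p = 0.00243, edgeR). Both had started higher, at 69.6 to 87.7 CPM and at 232 to 260 CPM after 1 d.

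Of the organelle models, mitochondrial L11 (Aa31LG6G12500) had 10.7, 14.8 and 17.2 CPM at 14 d and 9.47, 5.70 and 6.10 CPM in the dark. The dark libraries were the lower ones without overlap, with a log2 fold change of -1.04 ± 0.25 (adjusted p = 0.0152, edgeR), on 7 to 36 counts a library. Its call was lost without 14 d library 3, dark library 2 or dark library 3 (adjusted p 0.0529 to 0.0786, edgeR). The plastid L12-A model Aa31LG2G4880, the L7/L12 type of stalk protein in chloroplasts, had 121, 70.1 and 99.0 CPM at 14 d and 47.3, 61.9 and 49.4 CPM in the dark (-0.84 ± 0.20, adjusted p = 0.013, edgeR). Plastid L6, L3 and L4 family models (Aa31LG1G19560, Aa31LG1G24810 and Aa31LG1G6580) had log2 fold changes of -0.67, -0.61 and -0.55 and passed the same test.

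The single member that was higher in the dark than at 14 d was the L18ae family model Aa31LG8G1810, by 0.83 ± 0.14 (adjusted p = 0.0020, edgeR). Its 60.9 to 68.4 CPM in the dark lay above the 29.6 to 42.0 CPM at 14 d.

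Of the 20 members lower in the dark than at 14 d, 15 had also been lower at 7 d than at 1 d. This is 75% of the dark list and 23.1% of the first-week list. Among all tested models 536 were lower in both, 49.9% and 11.8% of the respective lists. The comparisons contrast different libraries, but both come from the same fit of all 12 libraries, with shared scaling and spread, so the lists are not independent.

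**Figure D4:**
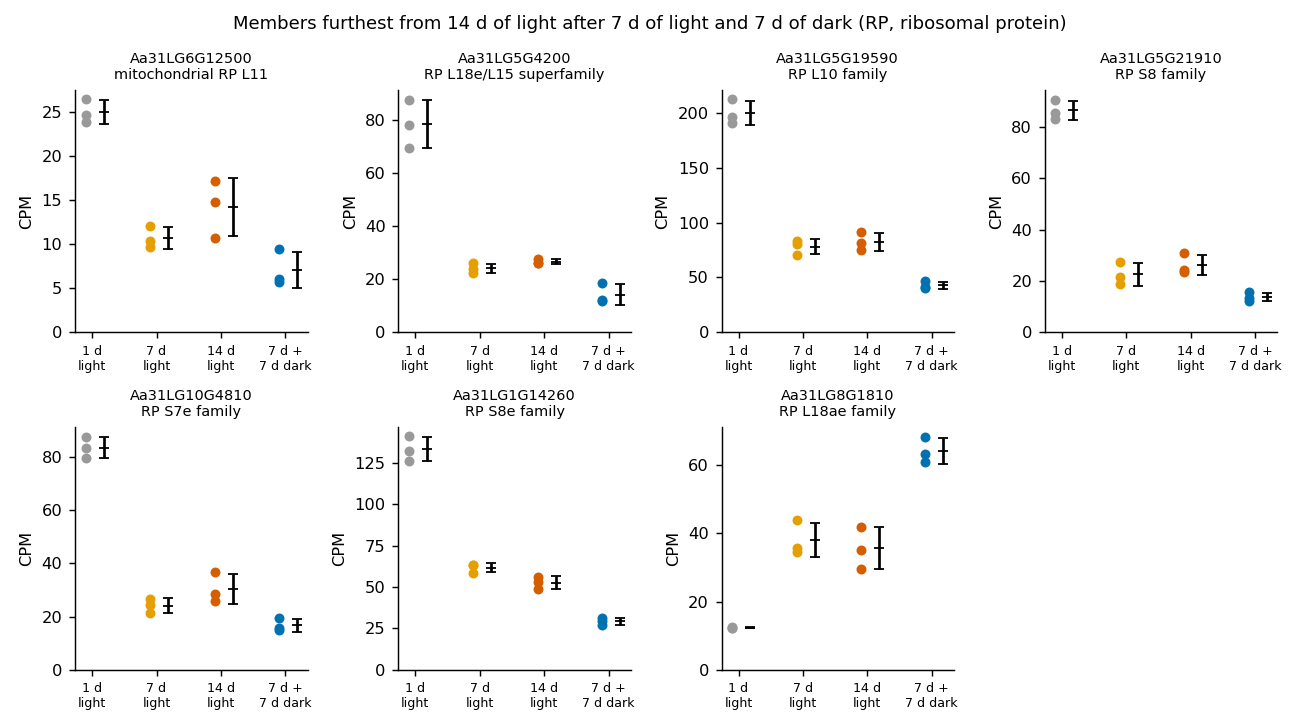
CPM (vertical axis) in the 4 conditions (horizontal axis) for the 7 called members with the lowest or highest log2 fold change between 7 d of light and 7 d of dark and 14 d of light, at a mean of at least 8 CPM. Each coloured point is 1 library and black marks are the mean ± SD of 3. In 6 models the dark libraries lie below those of 14 d, and in Aa31LG8G1810 they lie above, at 60.9 to 68.4 CPM.

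Against 7 d of light, the condition from which the seeds entered the dark, 4 members were higher and 13 lower, where 8.42% of all tested models were higher and 9.99% lower. This comparison and the one before share the dark libraries. The dark seeds were also 7 d older than those of 7 d, so darkness and age cannot be told apart here. With the trends removed 9 were higher and 48 lower, where 12% of all tested models were higher and 10.7% lower. Among the called members with a mean of at least 8 CPM, the largest fall was that of the L35Ae family model Aa31LG10G10740, from 17.7, 23.8 and 26.7 CPM at 7 d to 3.38, 14.7 and 12.8 CPM after the dark week. The log2 fold change was -1.12 ± 0.32 (adjusted p = 0.0275, edgeR), and the call was lost without dark library 1, which held 5 counts (adjusted p = 0.0764, edgeR), or without 7 d library 2 (adjusted p = 0.0858, edgeR).

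The L34e superfamily model Aa31LG5G16690 was at 83.0, 82.0 and 80.2 CPM at 7 d and at 46.7, 46.4 and 48.3 CPM after the dark week. At 1 d it had been at 67.4, 69.9 and 66.8 CPM. At 14 d of light its mean was 61.95 CPM, with every library below those of 7 d. Its dark libraries lay below all others, with a log2 fold change of -0.41 against 14 d. The log2 fold change against 7 d was -0.79 ± 0.10 (adjusted p = 0.000149, edgeR). Also lower were Aa31LG1G14260 (-1.07), Aa31LG5G19590 (-0.85), Aa31LG5G4200 (-0.79), Aa31LG1G22050 (-0.73) and plastid L4, Aa31LG1G6580 (-0.73), all log2 fold changes.

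The 4 members higher than at 7 d were Aa31LG11G14280 (L34e superfamily, 1.12 ± 0.31), Aa31LG3G420 (L18ae family, 0.83 ± 0.19), Aa31LG8G1810 (L18ae family, 0.77 ± 0.13) and the mitochondrial L51/S25/CI-B8 family model Aa31LG10G13940 (0.52 ± 0.17), all log2 fold changes ± SE. The call of Aa31LG8G1810 held whichever library was left out. Aa31LG3G420 had 57.2, 47.6 and 75.1 CPM at 7 d and 99.4, 121 and 97.1 CPM in the dark, and lost its call without 7 d library 2 (adjusted p = 0.0521, edgeR). Aa31LG10G13940 kept its call in 3 of the 12 fits that each leave out 1 library. Aa31LG11G14280 kept its call in 7 of these.

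Copies paired with the same Arabidopsis code were compared by the ratio of their counts within each library. Copies of one code can follow the library total with different slopes, as given for the first pairs below, so with the 1 d libraries the deepest, depth and condition cannot be told apart in the first-week ratios either. Of 110 pairs of tested copies, from 62 codes, 85 had a ratio that differed over the 4 conditions, against 74.1% of all 1609 pairs in the table, so the members' share (77.3%) was near the background. Pairs of one code share models and are not independent. In the first week 80 of 110 pairs differed in their change (64.5% of all pairs), in the second week none (0.622%), and between the dark week and 14 d 18 (12.4%). In the second week 5 pairs were called without 14 d library 2. The number for the dark week was 11 without 1 d library 1, 8 without 14 d library 2, and 6, 7 or 9 without dark library 1, 2 or 3. The shares of all pairs in the fits that leave out a library are not given here.

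Of the 80 first-week pairs, the copy with more reads per base was the one that changed upward against the other in 60. This was not counted over all pairs of the table. The density is the highest over the 12 libraries, which include those that gave the change. Among pairs with both copies under 0.3 reads per base, a limit for pairs added after the data were seen, 36 of 44 (81.8%) changed ratio over the conditions, where 73.9% of all 1400 such pairs did, and under 0.1 reads per base 1 of 2, where 68.9% of 672 did. No source used here says how reads were divided among near-identical copies, so these values and the folds of single copies are uncertain to that extent.

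The pair with the smallest adjusted p was of the S8 family code AT5G59850. Aa31LG5G7500 had 486, 483 and 496 counts at 1 d, 434, 400 and 419 at 7 d, 325, 403 and 372 at 14 d, and 379, 365 and 393 after the dark week. Aa31LG5G21910 had 340, 332 and 364 counts at 1 d and 15 to 59 in the other 9 libraries. Within conditions, the slope on the library total was 0.17 for Aa31LG5G7500 and 0.98 for Aa31LG5G21910. The ratio changed by -2.62 ± 0.17 on the log2 scale in the first week and by -0.97 ± 0.28 between 14 d and the dark week (adjusted p over the 4 conditions 3.4e-10, edgeR). The third tested copy, Aa31LG4G15170, fell in the first week with Aa31LG5G21910 (log2 fold changes -1.31 and -1.96), and Aa31LG5G7500 rose by 0.71 ± 0.26 (adjusted p = 0.0299, edgeR; 0.13 with the trends removed).

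The L18e/L15 code AT1G70600 had the same pattern. Aa31LG5G4200 had 311, 321 and 304 counts at 1 d and 18 to 64 in the other libraries, while Aa31LG7G7320 kept 292 to 393 counts throughout. Their slopes on the library total were 0.84 and 0.14, and Aa31LG7G7320 reached 0.897 reads per base, near the highest density of the table. Their ratio changed by -2.47 ± 0.18 in the first week and by -1.13 ± 0.28 between 14 d and the dark week, log2 (adjusted p over the 4 conditions 4.46e-10, edgeR). Aa31LG4G10350 lay between them, with 363, 367 and 374 counts at 1 d and 132 to 221 in the other libraries. A further model of this code, Aa31LG5G21870, had 2 counts in each 1 d library and none in any other.

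The S5 family code AT1G58684, whose protein lines the mRNA entry channel of the small subunit, had a copy that fell (Aa31LG1G4820, from 149, 153 and 137 to 58.6, 64.4 and 75.1 CPM). Its copy Aa31LG1G23860 was at 186, 201 and 173 CPM at 1 d and at 175, 191 and 246 CPM at 7 d, with overlapping groups. The difference between them was 1.27 ± 0.09 in the first week and 0.70 ± 0.11 between 14 d and the dark week (log2, adjusted p over the 4 conditions 7.35e-10, edgeR). For the L35Ae family code AT1G74270, Aa31LG10G10740 went from 68.9, 71.0 and 62.9 to 17.7, 23.8 and 26.7 CPM as Aa31LG4G4550 went from 94.6, 102 and 84.5 to 114, 130 and 167 CPM. The difference was -2.12 ± 0.18 on the log2 scale (adjusted p over the 4 conditions 1.76e-09, edgeR).

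All 4 copies of the L14p/L23e code AT3G04400, a protein of the subunit interface, were tested. In the first week Aa31LG1G20380 fell by 1.46 ± 0.12 on the log2 scale and Aa31LG5G7650 by 0.44 ± 0.18, and neither Aa31LG5G3940 (0.30 ± 0.19) nor Aa31LG5G14860 (0.45 ± 0.24) passed the test. Aa31LG1G20380 differed from Aa31LG5G14860 by -1.85 ± 0.15 (adjusted p over the 4 conditions 2.55e-09, edgeR). For AT5G15750, the S4 family code with an RNA-binding motif, Aa31LG2G910 had 47.8, 51.9 and 47.4 CPM at 1 d and 60.1, 52.9 and 78.9 CPM at 7 d. Its copy Aa31LG11G13830 fell to less than every 1 d library, as given above, and the difference was -2.69 ± 0.23 (log2, adjusted p over the 4 conditions 6.25e-09, edgeR).

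**Figure D5:**
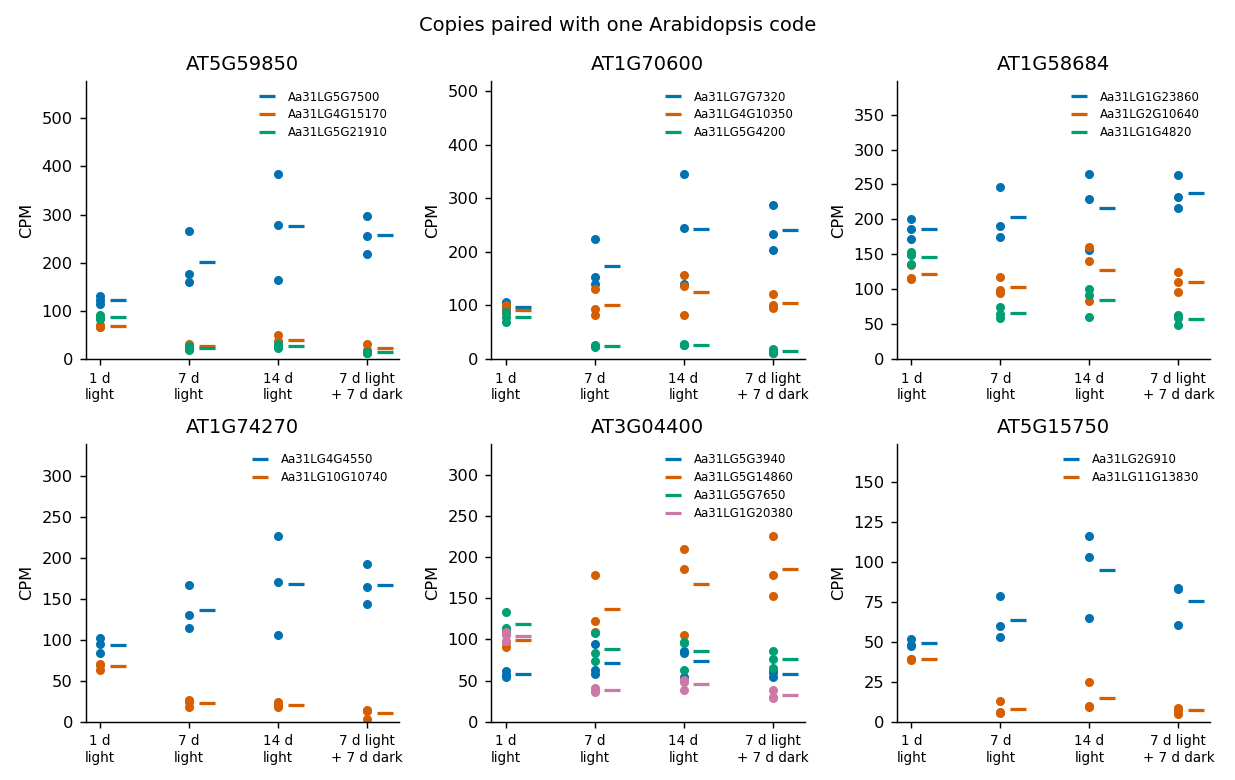
CPM (vertical axis) in the 4 conditions (horizontal axis) for the tested copies of the 6 Arabidopsis codes with the smallest adjusted p for a change of the copy ratio; points are libraries and dashes the means of 3. In AT5G59850, Aa31LG5G21910 lies at 83.3 to 90.7 CPM at 1 d and at 12.2 to 30.7 CPM elsewhere, while the points of Aa31LG5G7500 are at 114 CPM or more.

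In 15 of the 71 codes with 2 or more models, the copy with the highest mean RPKM was not the same in all 4 conditions. Between 1 d and 7 d it changed in 11, and in 6 of these the order of the 2 copies was reversed in all 6 libraries. These counts were not made for the other codes of the table, so they are not read as particular to ribosomal protein genes. For the L4/L1 code AT3G09630, Aa31LG1G22050 was at 150, 155 and 140 RPKM at 1 d and 71.2, 72.3 and 75.5 RPKM at 7 d, and Aa31LG3G2050 at 127, 137 and 119 RPKM and then 90.6, 96.7 and 110 RPKM. After the dark week they stood at 38.1, 44.4 and 42.8 RPKM and at 91.3, 100 and 86.0 RPKM, so the former higher copy was the lower one in all 9 later libraries. For the plastid L12-A code AT3G27830, Aa31LG2G4880 was the higher copy at 1 d (177, 196 and 178 against 156, 165 and 153 RPKM) and the lower one after the dark week (79.2, 103 and 82.6 against 167, 188 and 159 RPKM). The change of that ratio between 14 d and the dark week was -0.56 ± 0.12 (log2, adjusted p = 0.00465, edgeR).

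Genes that build ribosomes or work with them were followed in a list of 53 Arabidopsis codes, of which 41 had a model and 51 models were tested, 3 of the list's 57 models being members. In the first week 8 were higher and 14 lower, against 30.7% and 29.7% of all tested models, and with the trends removed 3 were higher and 32 lower. Of the 24 tested assembly factors 1 was higher and 11 lower, with a median log2 fold change of -0.36, and 0 and 21 with the trends removed. The REIL2 model Aa31LG7G11470, a late 60S maturation factor, went from 85.9 ± 3.66 CPM at 1 d to 32.1 ± 2.19 CPM at 7 d (SD, n = 3). It fell by 1.42 ± 0.14 on the log2 scale (adjusted p = 2e-06, edgeR). The NMD3 code, an export adapter of the 60S subunit, had one copy that fell (Aa31LG2G2740, -1.23 ± 0.12) and one that rose (Aa31LG2G18270, 0.38 ± 0.09, and 0.08 with the trends removed). BRX1-1 (Aa31LG10G2140, -1.40 ± 0.16), a 60S assembly factor, and the nucleolar Pumilio protein APUM23 (Aa31LG4G2680, -1.24 ± 0.15) fell as well.

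Of 19 tested translation factors and related genes 4 were higher and 3 lower in the first week, and 1 and 10 with the trends removed. Of 8 tested signalling genes 3 were higher, led by the S6 kinase model S6K2 (Aa31LG5G11440, log2 fold change 1.01 ± 0.13, adjusted p = 2.0e-05, edgeR). With the trends removed 2 of the 8 were higher and 1 lower, and S6K2 had 0.58. None of the list was called in the second week by edgeR. Between the dark week and 14 d 1 was higher and 1 lower, where 6.05% and 7.02% of all tested models were. The higher one was a NOP58-like model of the small nucleolar RNA machinery (Aa31LG5G15380), at 171 ± 21.7 CPM at 14 d and 268 ± 17.8 CPM after the dark week (SD, n = 3). Its log2 fold change was 0.66 ± 0.12 (adjusted p = 0.00303, edgeR). The other tested model of this code, Aa31LG11G8870, had -0.28 ± 0.11 and was not called. With the trends removed Aa31LG11G8870 was lower (-0.33, adjusted p = 0.00907, edgeR). The lower one was BRX1-1, Aa31LG10G2140 (-0.71 ± 0.21, adjusted p = 0.0409, edgeR). Its call was lost with the trends removed (-0.60, adjusted p = 0.122, edgeR). The whole list then had 1 higher and 9 lower, where 9.07% of all tested models were higher and 8.17% lower.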

How the data were processed

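Poly(A) RNA libraries were sequenced on an Illumina HiSeq per the labels. The deposited counts are whole reads per gene model. The deposited RPKM values, checked on the table, are the counts divided by model length and library total (to a relative difference of at most 3.45e-08). The submitters' processing notes name bcl2fastq 2.17.1, Trimmomatic, Bowtie2 2.3.5.1, HTSeq 0.11.2 and TAIR10, without their roles. How the deposited gene length was defined and how reads were assigned to similar copies are not stated in any source used here.

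Counts were tested with edgeR 4.0.16 (TMM, quasi-likelihood) on all 12 libraries with 4 condition means and Benjamini-Hochberg adjustment over 15301 models kept by edgeR's expression filter; untested models hold 0.379% of counts. CPM are TMM-scaled. Copy ratios were tested with edgeR in a stacked fit with a term per library, over 1609 pairs of codes with up to 6 tested models. Tests were checked on simulated counts that grew in proportion to the library total, with a common dispersion. That check does not cover counts that follow the total less than in proportion, as those of many members did. Member calls by DESeq2 1.42.0 are given above for the second week only. Results by limma 3.58.1 and by some of the other alternatives are given below. The labels do not say whether libraries came from separate seed lots, so the p-values reflect the spread among the libraries at hand. Members and lists were chosen with earlier results of these data known. Members were named for the 6 highest and 6 lowest called log2 fold changes per comparison at a mean of 8 CPM or more. Copies of the 6 codes with the smallest adjusted p were also named, as were some further members after their values were seen. Values by library are given for many of these, for some in part of the conditions only, and for others only fold changes are given. Promoter and protein sequences were not used here.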

Additional observations from a re-analysis of the deposited data

How the results depend on the processing

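Between 7 d and 1 d, members higher numbered 57 and were 35 with total counts, 88 with the length trend removed and 27 with length and density trends removed; members lower numbered 65 and were 143 with both trends removed. Leaving out 1 library gave 18 to 83 higher and 54 to 79 lower. For fits that leave out a library, shares over the whole table are not given here, except where stated above. Between 14 d and 7 d both trends removed gave 1 lower, and leaving out 1 library 0 to 60 higher and 0 to 3 lower. Between the dark week and 14 d, members higher numbered 1 and were 4 with the length trend or both trends removed, and lower numbered 20 and were 13 with the length trend removed, 39 with both removed and 6 with the 2 conditions only. Leaving out 1 library gave 1 to 3 higher and 5 to 51 lower. Between the dark week and 7 d, members higher numbered 4 and were 15 with the length trend and 9 with both removed, and lower 13 and 48 with both removed. Leaving out 1 library gave 1 to 15 higher and 6 to 18 lower. The share of higher calls among the called members in the first week was 46.7%. It was 29.9%, 59.5% and 15.9% with total counts, the length trend removed and both removed. Of all 15301 tested models, 4695 were higher and 4548 lower, and 3797 and 5341 with total counts. They were 5430 and 4316 with the length trend removed, and 4435 and 4974 with both removed. The members' share was 4.76% between the dark week and 14 d, and 23.5% with the length trend removed. Between the dark week and 7 d it was 23.5%, and 51.7% with the length trend removed. Of all tested models, 925 were higher and 1074 lower between the dark week and 14 d, and 1237 and 969 with the length trend removed. Between the dark week and 7 d these were 1289 and 1529, and 1988 and 1383 with the length trend removed. The median log2 fold change of the members in the first week, 0.15, was 0.02 with total counts, 0.18 with models under 0.3 reads per base alone, 0.01 with models under 0.1 reads per base alone and -0.26 with both trends removed. Between the dark week and 7 d it was 0.06, and -0.009 with total counts. Among the 42 tested members under 0.1 reads per base in every library, a limit added after the data were seen, 15 were higher and 14 lower in the first week, where 28.9% of all 9378 tested models under this limit were higher and 30.7% lower. Copy pairs called over the 4 conditions numbered 78 to 87, those of the first week 71 to 86, those of the second week 0 to 5 and those of the dark week against 14 d 6 to 21 when 1 library was left out, and limma on log2 ratios called 88 over the 4 conditions. Replicate numbers did not pair the libraries: same-number correlations were -0.468 to 0.475 and 4 of 12 libraries correlated best with their own number. With the replicate block the members lower between the dark week and 14 d were 13, those higher between the dark week and 7 d were 2, and the copy pairs called between the dark week and 14 d were 9. With this block 40 members were higher and 59 lower in the first week. The shares of all tested models and of all pairs with this block are not given here. Its counts are therefore not set against the table. Of the values of single genes and pairs under all settings, 606 kept their direction and call, 35 kept the direction and lost the call, and none reversed. The cause was not tested. These genes and pairs were picked for large called changes or small adjusted p in these data, so the tally does not describe all members. Over all members, 67 of 122 first-week calls held whichever library was left out. So did 5 of 21 between the dark week and 14 d, and 7 of 17 between the dark week and 7 d.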
